A study of Mus musculus with 4 samples.

Results

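The genes described here are 36 genes of the lysosome: its hydrolases, its proton pump (the V-ATPase), its membrane proteins, and the transcription factors and FLCN complex that control them. They were taken by gene symbol from a table of 25759 symbols, in which all 36 were found. Their transcripts were counted in alveolar epithelial type II cells of C57BL/6 mice aged 14 weeks; these lung cells make and recycle surfactant. The wild-type group (WT) had 2 libraries, and the other group had 2 libraries from mice with a conditional, active mTOR transgene, labelled Sftpc-mTOR (mTOR Tg). Sftpc encodes surfactant protein C, a product specific to type II cells. The labels do not say whether a library came from 1 mouse or a pool, nor how the cells were isolated, and p-values therefore reflect library-to-library spread, which may be technical.

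The lysosome is the acidic compartment in which proteins, glycans and lipids are broken down. Its hydrolases work at a low pH that the V-ATPase maintains by pumping protons, with a V1 sector that splits ATP in the cytosol and a V0 sector that forms the channel in the membrane. TFEB and its relatives TFE3, MITF and TFEC bind E-box motifs in promoters of lysosomal genes. mTOR complex 1 phosphorylates TFEB at the lysosomal surface and keeps it in the cytosol, and folliculin (FLCN) with FNIP1 or FNIP2 acts on the Rag GTPases to make this possible. In type II cells the lamellar bodies that store surfactant are lysosome-related organelles, acidified by the same pump. The question put to the counts was whether transcripts of these genes differed between mTOR Tg and WT cells, and whether hydrolases, pump and regulators did so alike.

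The promoters of these genes are shown first because TFEB, TFE3 and MITF are known to act through E-box motifs in promoters of lysosomal genes. The RefSeq promoter table (build GRCm38.p6, from 250 bases before to 50 after the start site) held 31 of the 36 genes; Ctsb, Atp6v0d2, Atp6v1b2, Atp6v1c1 and Atp6v1h had no entry. The E-box core CACGTG, searched on both strands, was in the promoters of 15 of these 31 genes (48.4%) and of 8.09% of the 27025 genes in the table. The longer palindrome TCACGTGA, which contains the core, was in 7 of 31 (22.6%) against 1.12% of all genes, and GTCACGTG on either strand, which overlaps it, in 10 of 31 (32.3%) against 2.55%. The palindrome was found in 2 of 5 membrane protein genes, 2 of 6 protease genes, 1 of 9 other hydrolase genes, 2 of 4 pump genes and 0 of 7 regulators. A match is a description of letters and does not show that a factor was bound. The stretches below lie before the start site of the RefSeq promoter table, with E-box matches in capitals. The first, on the plus strand at chr8:13159091-13159160, ends at the base before the start of Lamp1 and holds 4 cores. The others each hold a palindrome, of a pump gene (minus strand, chr16:44139353-44139422) and of genes for cathepsin D (minus strand, chr7:142387908-142387937), cathepsin A (plus strand, chr2:164833743-164833772), mucolipin 1 (plus strand, chr8:3500462-3500491), CLN3 (minus strand, chr7:126583340-126583369) and alpha-galactosidase A (minus strand, chrX:134601215-134601244). In the GENCODE annotation the Ctsd, Ctsa, Mcoln1 and Cln3 stretches also overlap an exon of a transcript of the same gene that starts earlier, and the Gla stretch an exon of Hnrnph2. The Atp6v1a stretch overlaps no exon there, but the GENCODE gene starts earlier, at chr16:44139705, so that this stretch lies inside the gene.
Lamp1: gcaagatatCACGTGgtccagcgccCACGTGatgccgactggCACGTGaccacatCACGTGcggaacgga
Atp6v1a: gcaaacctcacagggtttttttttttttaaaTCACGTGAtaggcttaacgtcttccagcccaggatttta
Ctsd: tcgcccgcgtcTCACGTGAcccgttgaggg
Ctsa: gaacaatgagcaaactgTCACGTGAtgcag
Mcoln1: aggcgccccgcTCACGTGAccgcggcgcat
Cln3: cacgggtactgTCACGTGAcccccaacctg
Gla: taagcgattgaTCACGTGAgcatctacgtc

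Total counts were 18146693 and 19018785 for the WT libraries, and for mTOR Tg 21972124 and 20273396. Values below are normalised CPM (counts scaled to library sizes that TMM, a trimmed mean of log ratios, has adjusted) unless said otherwise, and the order is WT replicates 1 and 2, then mTOR Tg replicates 1 and 2. mTOR Tg replicate 1 stood apart, with a Pearson's r of 0.951 to 0.954 with the other libraries across genes. In this library a gene's difference from WT followed its transcript length. Among all genes tested, those in the shortest quartile (up to 1546 bases) had a median log2 difference from the WT mean of 0.38 and those in the longest (from 3785 bases) of -0.48, against -0.0037 and 0.0066 in mTOR Tg replicate 2. Summed markers of airway club cells were 81303, 84531, 169020 and 52439, those of ciliated cells 1056, 1197, 2759 and 1093, and those of type II cells 123480, 102050, 109490 and 124190. Over the 10 type II markers, the median log2 difference from the WT mean was -0.38 in mTOR Tg replicate 1, with 2 above that mean. In mTOR Tg replicate 2 the median was 0.13, with all 10 above. Endothelial markers summed to 144, 143, 92.6 and 88.2, type I cell markers to 1474, 1332, 2022 and 1526, and fibroblast markers to 46.4, 30.8, 34.7 and 60.7. Macrophages are rich in lysosomes, and their markers differed in level: Adgre1 and C1qb had no count in any library and Marco had 0, 0, 0 and 1. Of the 14 macrophage markers only Csf1r (59, 81, 162 and 71 counts), Mpeg1 (251, 244, 131 and 242) and Cd68 (85, 50, 70 and 77) had more than 13 counts in any library, and the list summed to 22.8, 19.8, 18.3 and 19.4. The part of cell composition and of transcript length in the results below was not tested beyond the values given with them. In bulk samples, fewer cells of a type and less RNA per cell cannot be told apart. Mtor itself was at 56.8, 56.7, 38.9 and 61.8. Whether reads of the transgene fall under this symbol was not given in the sources used here.

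Of the 36 genes, 34 had enough counts to be tested, and none passed the threshold. By the quasi-likelihood test of edgeR, calls were made for 0 of 34 at an adjusted p under 0.05, and for 0% of the 13306 genes tested, and the smallest adjusted p was 0.860. At an unadjusted p under 0.05 there were also 0 of 34, beside 2.46% of all genes. DESeq2 called 0 of the 34, beside 0.0999% of genes, and limma-voom 0, beside 0%. With 1 library left out, the counts were 0 of 34 without WT replicate 1 (beside 0.0802%), without WT replicate 2 (0.109%) and without mTOR Tg replicate 1 (2.20%). Without mTOR Tg replicate 2, 14 of 34 were called, beside 45.5% of all genes. Of these, 7 were higher, beside 21.8%, and 7 lower, beside 23.6%. The fitted log2 fold change was above 0 in 23 of the 34, with a median of 0.14, beside 50.9% of all genes and a median of 0.01. In 9 of 34 genes the lower mTOR Tg library was above the higher WT library, beside 17.6% of all genes, and in 0 of 34 the reverse held, beside 17.0%. Those 9 were Lamp1, Mcoln1, Ctsa, Ctsb, Ctsd, Ctsz, Hexa, Gusb and Neu1, of which 7 encode hydrolases.

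**Figure D1:**
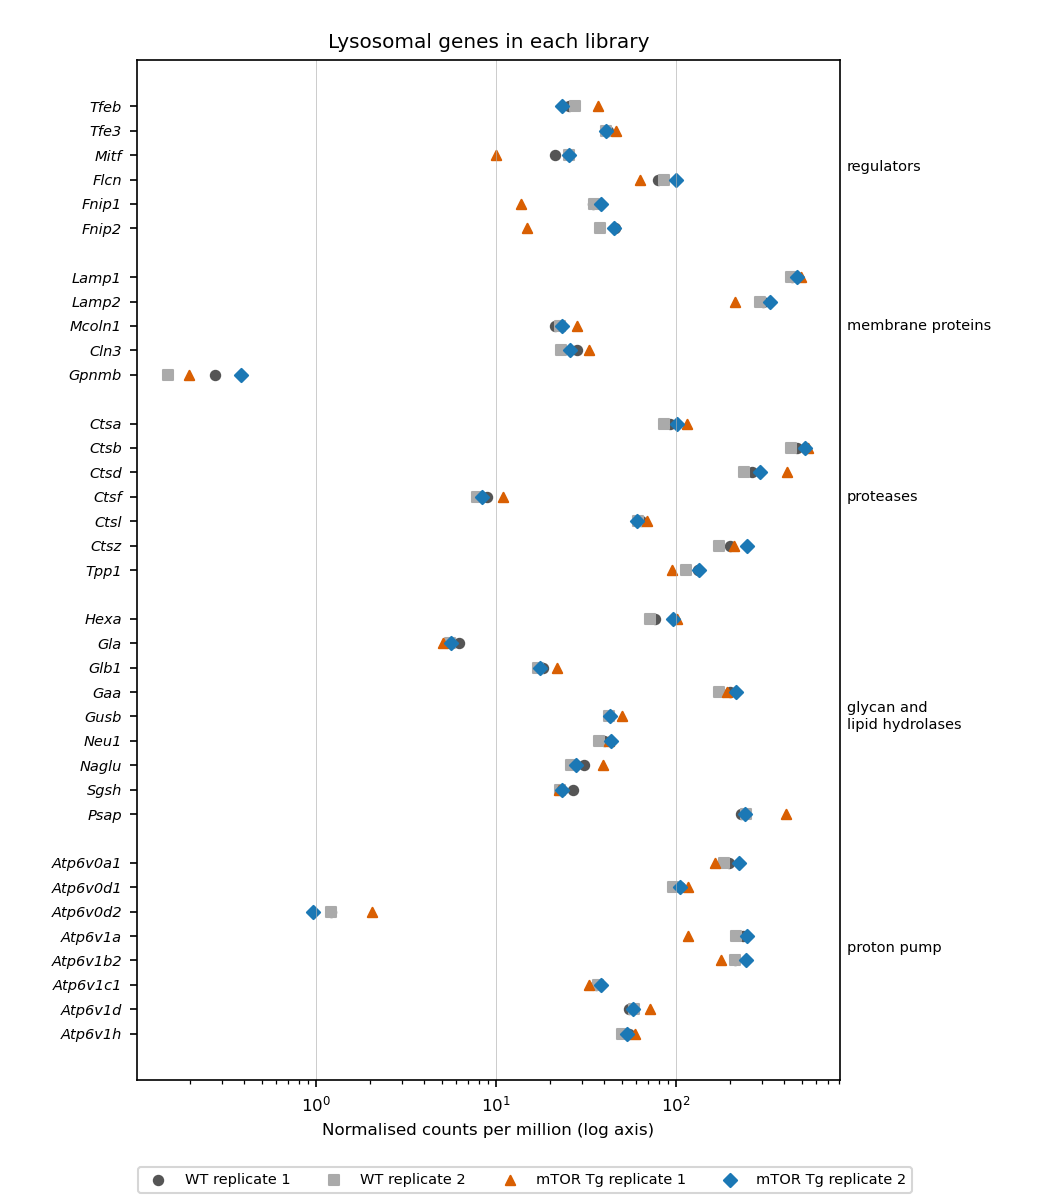
Normalised CPM (log axis) of 35 of the 36 genes in each of the 4 libraries, grouped by role; Tfec, with no count in any library, is not drawn. Levels span from 0.275 CPM for Gpnmb to 471 CPM for Ctsb in WT replicate 1, and for most genes the 4 points lie close together, with mTOR Tg replicate 1 (triangles) to the left for Mitf, Fnip1, Fnip2, Lamp2 and Atp6v1a.

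Among the regulators, 3 of the 4 members of the TFEB family had counts in every library, at similar levels. Per kilobase of transcript, the mean WT level was 11.5 normalised CPM for Tfeb, 13.1 for Tfe3 and 11.0 for Mitf. Tfec, the fourth member and known mainly from macrophages, had 0 counts in each library. There 3 counts correspond to 0.137 to 0.165 CPM of total counts, without the TMM adjustment. The most abundant regulator per kilobase was Flcn, at 29.9, above its partners Fnip2 at 11.0 and Fnip1 at 5.58.

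Tfeb had 466, 541, 748 and 483 counts, or 25.6, 27.3, 36.7 and 23.1 CPM. The 2 mTOR Tg libraries lay on opposite sides of the WT pair, and the log2 fold change was 0.18 (SE 0.28), which turned to -0.19 without mTOR Tg replicate 1, and to -0.04 under a correction of each library for length and GC content. Tfe3, which shares most functions of TFEB, had 768, 804, 945 and 853 counts (42.2, 40.6, 46.4 and 40.8 CPM); its log2 fold change was 0.07 (SE 0.19), and -0.02 without mTOR Tg replicate 1. Of the regulators, its 4 libraries lay closest together. Mitf, best known from pigment cells and osteoclasts, had 388, 502, 204 and 532 counts (21.3, 25.4, 10.01 and 25.5 CPM). mTOR Tg replicate 1 held 43.3% of the mean WT level of Mitf, while replicate 2 was at the level of WT replicate 2.

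Fnip1 and Fnip2, which encode the partners through which folliculin works, showed the same arrangement. Fnip1 had 629, 697, 281 and 802 counts, or 34.5, 35.2, 13.8 and 38.4 CPM. Fnip2 had 833, 745, 305 and 942 counts, or 45.7, 37.7, 14.96 and 45.1 CPM. mTOR Tg replicate 1 was thus at 39.7% and 36.2% of the mean WT level, below both WT libraries, and replicate 2 was above the WT mean for both genes. The log2 fold changes over all 4 libraries were -0.42 (SE 0.47) for Fnip1, -0.47 (SE 0.51) for Fnip2 and -0.40 (SE 0.45) for Mitf, and without mTOR Tg replicate 1 they were 0.14, 0.11 and 0.13. Flcn had 1446, 1704, 1294 and 2095 counts (79.4, 86.1, 63.5 and 100.3 CPM), so that its lowest and its highest library were both mTOR Tg. Its log2 fold change was -0.01 (SE 0.27), 0.28 without mTOR Tg replicate 1 and -0.38 without replicate 2. In 0 of the 6 regulators tested were both mTOR Tg libraries on the same side of both WT libraries, beside 34.6% of all genes. The regulators' median of -0.21 was 0.12 without mTOR Tg replicate 1 and -0.05 with length and GC content corrected.

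Transcript length and the difference in mTOR Tg replicate 1 went together among these genes as among all genes. Spearman's rho between length and the log2 difference of this library from the WT mean was -0.39 over the 34 genes and -0.49 over 13137 genes, against 0.04 and 0.01 for mTOR Tg replicate 2; the points of each correlation share a library. mTOR Tg replicate 1 lay above the WT mean in 22 of the 34 genes, beside 50.8% of all genes, and replicate 2 in 26 of 34, beside 49.9%. In mTOR Tg replicate 1, 9 of the 11 shortest genes (1441 to 2113 bases) lay above the WT mean, with a median difference of 0.21. Of the 11 genes of middle length (2184 to 2768 bases) 9 did, with a median of 0.36, and of the 12 longest (2825 to 6255 bases) 4 did, with a median of -0.21. The medians of these 34 genes were thus not graded over the shorter lengths, and the longest set was the one with a median below WT. Fnip1, with 6255 bases, is the longest of them. With the correction for length and GC content the log2 fold change of Fnip1 was -0.04, that of Fnip2 -0.44 and that of Mitf -0.42.

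**Figure D2:**
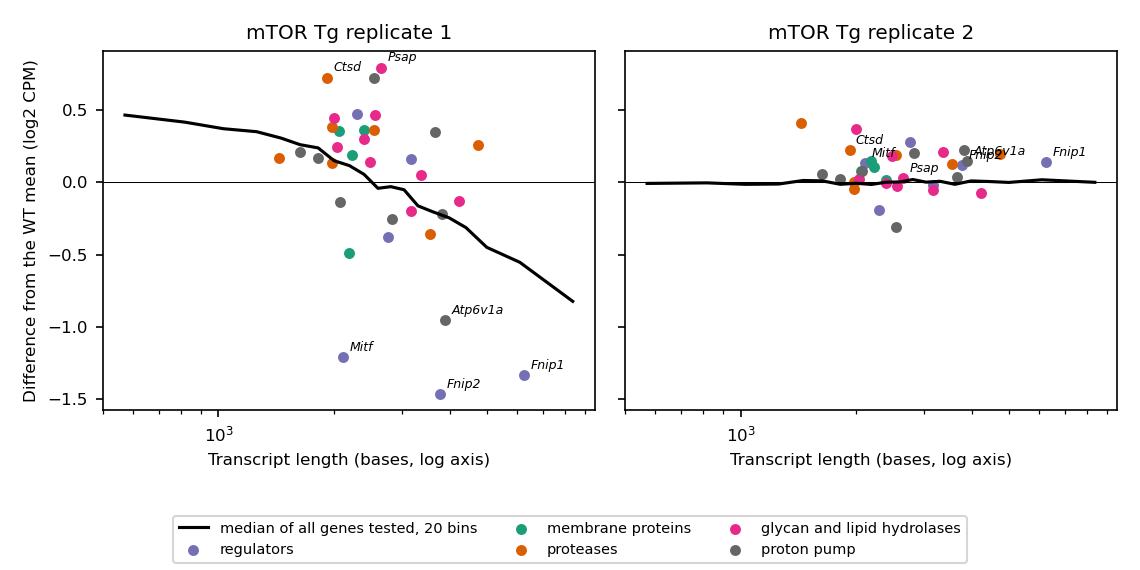
Log2 difference of each mTOR Tg library from the WT mean against transcript length (log axis) for the 34 genes tested, coloured by role, with the median of all genes in 20 bins of length as a black line. In replicate 1 the line runs from 0.47 in the shortest bin to -0.82 in the longest, with Mitf, Fnip1, Fnip2 and Atp6v1a below it, and in replicate 2 it stays near 0.

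The proteases were the role group with the highest median, at a log2 fold change of 0.23, with 6 of 7 above 0 and none passing the test; it was 0.14 with length and GC content corrected. Cathepsin D (Ctsd), the main aspartic protease of the lysosome, had 4837, 4698, 8463 and 6121 counts, or 266, 237, 415 and 293 CPM. Both mTOR Tg libraries were above both WT libraries, replicate 1 by much more, and the log2 fold change was 0.49 (SE 0.24, edgeR adjusted p = 0.860). Without mTOR Tg replicate 1 the value for Ctsd was 0.22. Cathepsin A (Ctsa), a serine carboxypeptidase that also stabilises the sialidase NEU1, had 1693, 1698, 2344 and 2124 counts (93.0, 85.8, 115 and 102 CPM); its log2 fold change was 0.28 (SE 0.19). The cysteine proteases cathepsin B (Ctsb) and cathepsin Z (Ctsz) did not overlap between groups either. Ctsb was at 471, 434, 541 and 519 CPM, and Ctsz at 200, 174, 209 and 248 CPM, with mTOR Tg replicate 2 the highest. For Ctsz, mTOR Tg replicate 1 was only a little above WT replicate 1.

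The other proteases did not separate the genotypes. Cathepsin L (Ctsl) was at 64.2, 61.4, 68.8 and 61.0 CPM, with a log2 fold change of 0.05 that turned to -0.04 without mTOR Tg replicate 1. Cathepsin F (Ctsf), the lowest of the group at 4.22 CPM per kilobase in WT, had 162, 155, 222 and 175 counts. Tpp1, the tripeptidyl peptidase deficient in a childhood form of neuronal ceroid lipofuscinosis, had 2401, 2250, 1943 and 2798 counts (132, 114, 95.3 and 134 CPM). It was below both WT libraries in mTOR Tg replicate 1 and above both in replicate 2, a log2 fold change of -0.10 (SE 0.24). That value was 0.13 without mTOR Tg replicate 1, 0.01 without WT replicate 1 and 0.06 with length and GC content corrected. The exons of Ctsd share 31.5% of their bases with a same-strand gene model, Gm49369. Those of Ctsl share 28.2% with Gm47123, on the opposite strand, and Gm49230, on the same strand. Genes on the opposite strand share 22.3% of the exon bases of Ctsa, 16.3% of those of Ctsb, 21.9% of those of Sgsh (with Card14) and 13.2% of those of Cln3 (with Apobr). It was not given in the sources used here whether counting used strand, so reads of opposite-strand pairs may not be told apart. Reads in bases shared on the same strand may not be told apart in either case.

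Enzymes of glycan and lipid breakdown had a median log2 fold change of 0.15, with 7 of 9 above 0 and 0 called. This median was 0.06 with length and GC content corrected and 0.02 without mTOR Tg replicate 1. Hexa, the alpha subunit of the hexosaminidase that degrades GM2 ganglioside, had the smallest p of all 34 genes. It had 1400, 1419, 2058 and 1999 counts, or 76.9, 71.7, 101 and 95.7 CPM. The 2 mTOR Tg libraries lay close to each other and above WT, with a log2 fold change of 0.40 (SE 0.19, unadjusted p = 0.0752, edgeR adjusted p = 0.860). It stayed between 0.35 and 0.45 with each library left out and was 0.27 after the length and GC correction. Psap encodes prosaposin, the precursor of the saposins that present sphingolipids to hydrolases. It had 4159, 4847, 8361 and 5043 counts (228, 245, 410 and 242 CPM), so that mTOR Tg replicate 1 alone stood out. Its log2 fold change of 0.46 (SE 0.30) was 0.03 without that library. Per kilobase, Psap was the most abundant of these genes in WT, at 89.2, and Gla the least, at 1.85.

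Neu1, the lysosomal sialidase, was at 39.8, 37.5, 42.5 and 43.8 CPM, and Gusb, the beta-glucuronidase, at 42.5, 42.3, 50.3 and 43.0 CPM. In both genes the lower mTOR Tg library exceeded the higher WT library by only a little. Gaa, the acid alpha-glucosidase that degrades glycogen, was at 200, 173, 193 and 215 CPM, with overlapping groups. Glb1 (beta-galactosidase) was at 18.3, 17.1, 21.8 and 17.6 CPM and Naglu, which acts on heparan sulphate, at 30.9, 26.2, 39.3 and 27.9 CPM. In both, mTOR Tg replicate 1 was the highest library and replicate 2 lay between the WT libraries. Without replicate 1 their log2 fold changes turned from 0.15 to -0.01 and from 0.24 to -0.03. Gla, the alpha-galactosidase deficient in Fabry disease, had 113, 110, 104 and 118 counts, and Sgsh, a sulphatase of heparan sulphate breakdown, 485, 446, 457 and 485. Their log2 fold changes were -0.13 (SE 0.25) and -0.11 (SE 0.21), but that of Gla was 0.03 after the length and GC correction and that of Sgsh 0.02 without WT replicate 1.

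Counted together, 13 of the 16 hydrolase genes (Psap included) had a log2 fold change above 0, with a median of 0.18. In 7 of 16 (43.8%) both mTOR Tg libraries exceeded both WT libraries, beside 17.6% of all genes. In 0 of 16 they lay below, beside 17.0%. mTOR Tg replicate 2 taken alone exceeded both WT libraries in 9 of 16, beside 35.1% of all genes, and replicate 1 alone in 12 of 16, beside 44.7%. With mTOR Tg replicate 1 left out, 11 of 16 were above 0 and the median was 0.08. With WT replicate 1 left out the median was 0.26, and with WT replicate 2 left out 0.12. The WT replicates themselves were at median differences of 0.07 and -0.07 from their mean over these 16 genes, and the mTOR Tg libraries at 0.25 and 0.08, so that WT replicate 1 lay close to mTOR Tg replicate 2. Type II cell markers had medians of 0.13 and -0.13 in WT and of -0.38 and 0.13 in mTOR Tg over 10 genes. After the length and GC correction 15 of 16 hydrolases were above 0, beside 52.7% of all genes, and their median was 0.08.

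**Figure D3:**
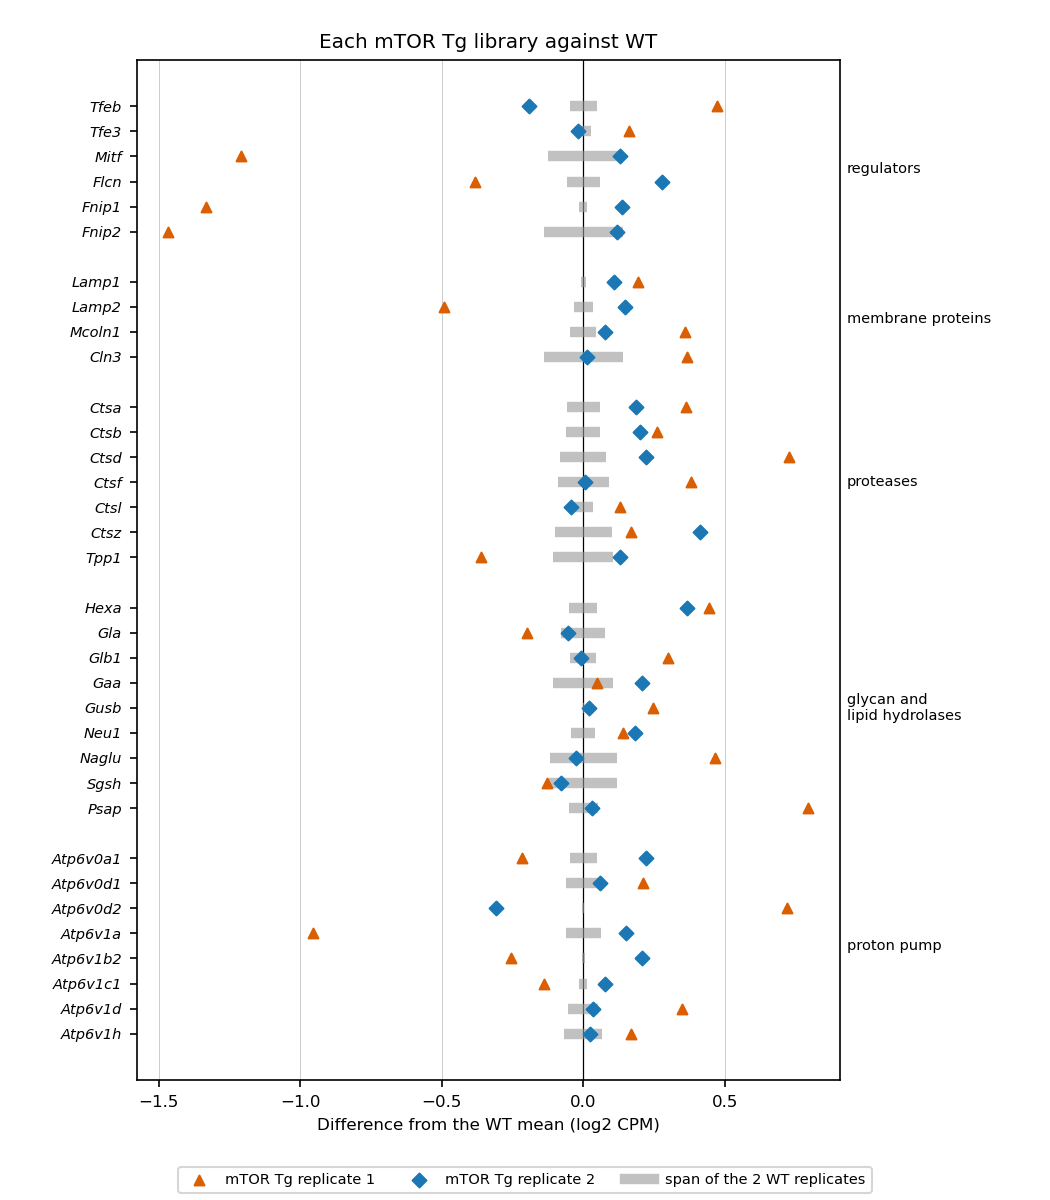
Log2 difference of each mTOR Tg library from the WT mean for the 34 genes tested, with a grey bar spanning the 2 WT replicates. Both mTOR Tg points lie to the right of the grey bar for 7 of the 16 hydrolases, among them Hexa and Ctsd, and for Lamp1 and Mcoln1, while most regulators and 5 of the 8 pump genes have 1 point on each side.

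The proton pump genes had a median log2 fold change of 0.06, with 5 of 8 above 0 and 0 of 8 with groups that did not overlap, beside 34.6% of all genes in either direction. In the V1 sector, Atp6v1a encodes the catalytic A subunit. It had 4275, 4258, 2364 and 5207 counts, or 235, 215, 116 and 249 CPM. mTOR Tg replicate 1 was at 51.6% of the WT mean and replicate 2 was the highest of the 4 libraries. The log2 fold change of -0.30 (SE 0.38) was 0.15 without mTOR Tg replicate 1. Atp6v1b2, the B subunit that pairs with it, was the most abundant pump gene per kilobase in WT, at 75.3. It had 3886, 4192, 3627 and 5123 counts (213, 212, 178 and 245 CPM), again with the mTOR Tg libraries on either side of WT. Its log2 fold change was -0.01 (SE 0.23), and 0.21 without mTOR Tg replicate 1.

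Subunits C, D and H of the V1 sector varied less between libraries than subunit A. Atp6v1c1 had 657, 728, 674 and 802 counts (36.1, 36.8, 33.1 and 38.4 CPM), with a log2 fold change of -0.03 (SE 0.20) that was 0.08 without mTOR Tg replicate 1. Atp6v1d had 994, 1162, 1469 and 1211 counts (54.6, 58.7, 72.1 and 58.0 CPM), with a log2 fold change of 0.20 (SE 0.21). Correcting for length and GC content gave 0.54 for Atp6v1d, and leaving out mTOR Tg replicate 1 gave 0.03. Atp6v1h, whose product couples the sectors, was at 54.9, 50.03, 58.9 and 53.2 CPM.

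In the V0 sector, Atp6v0a1, the large membrane subunit a1, was at 197, 184, 164 and 223 CPM, so that its lowest and its highest library were both mTOR Tg. Its log2 fold change of 0.02 was 0.22 without mTOR Tg replicate 1 and -0.22 without replicate 2. The d subunit joins the sectors and exists as a ubiquitous form, Atp6v0d1, and a form of osteoclasts and macrophages, Atp6v0d2. Atp6v0d1 had 1920, 1916, 2387 and 2198 counts (105, 96.8, 117 and 105 CPM), whereas Atp6v0d2 had 22, 24, 42 and 20. Per kilobase, the WT means were 62.1 and 0.477 normalised CPM. The log2 fold change of Atp6v0d2, 0.31 (SE 0.49), was -0.34 without mTOR Tg replicate 1.

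Membrane proteins of the lysosome had a median log2 fold change of 0.17, with 3 of 4 tested genes above 0. The median was 0.09 both with length and GC content corrected and without mTOR Tg replicate 1. Lamp1, the most abundant of all 36 genes per kilobase in WT at 196, had 7988, 8565, 10149 and 9816 counts (439, 433, 498 and 470 CPM). Both mTOR Tg libraries exceeded both WT libraries, which differed little, and the log2 fold change was 0.15 (SE 0.19). Lamp2, its partner in the membrane and a receptor of chaperone-mediated autophagy, had 5569, 5778, 4329 and 6917 counts (306, 292, 212 and 331 CPM). Here mTOR Tg replicate 1 was the lowest and replicate 2 the highest library, and the log2 fold change was -0.14 (SE 0.27), or 0.15 without mTOR Tg replicate 1 and 0.02 with length and GC content corrected. Mcoln1, the calcium channel of the lysosome through which calcineurin is activated, had 388, 449, 575 and 485 counts (21.3, 22.7, 28.2 and 23.2 CPM). Its groups did not overlap, but the lower mTOR Tg library exceeded the higher WT library by only a little. The log2 fold change of Mcoln1 was 0.23 (SE 0.21), and 0.08 without mTOR Tg replicate 1. Cln3, the gene of juvenile neuronal ceroid lipofuscinosis, had 511, 457, 669 and 537 counts; its log2 fold change was 0.19 (SE 0.23), and 0.01 without mTOR Tg replicate 1. Gpnmb, a glycoprotein of macrophages and melanocytes, had 5, 3, 4 and 8 counts and was too low to be tested.

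**Figure D4:**
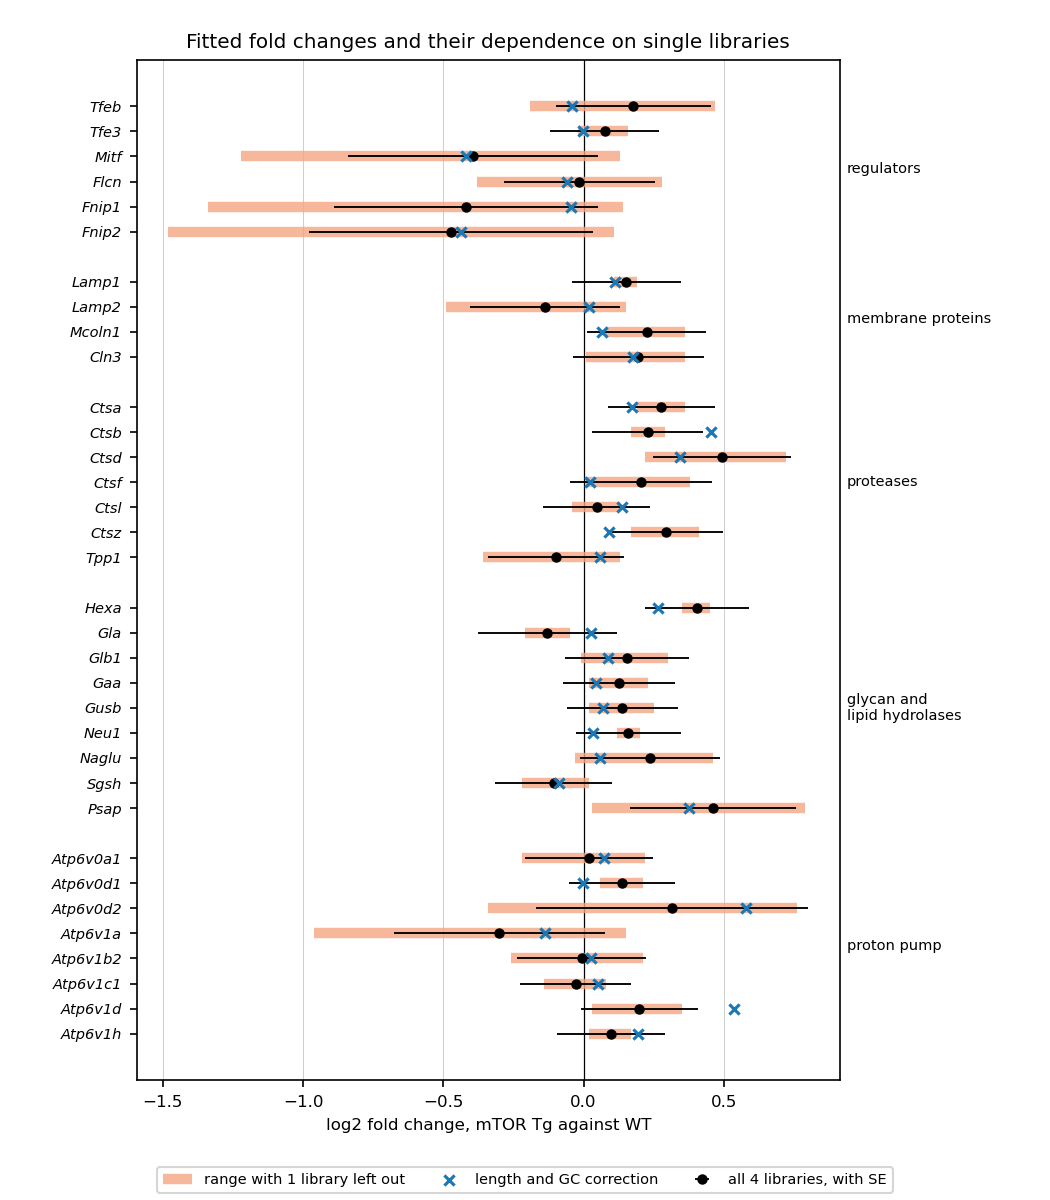
Fitted log2 fold change of mTOR Tg against WT with its SE (black), the range over fits with 1 library left out (orange bar) and the value after a length and GC correction (cross) for the 34 genes tested. The bars of Mitf, Fnip1, Fnip2 and Atp6v1a reach from below -0.9 to above 0.1. Those of many genes, among them Hexa, Ctsb, Lamp1 and Neu1, stay above 0, and that of Gla stays below 0.

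Taken by role, the summed level of the regulators was 249, 252, 185 and 273 normalised CPM, and that of the pump genes 897, 855, 741 and 973. In both groups mTOR Tg replicate 1 was the lowest library and replicate 2 the highest. The proteases summed to 1234, 1114, 1456 and 1365 and the glycan and lipid enzymes to 670, 641, 885 and 713, with both mTOR Tg libraries above both WT libraries in each case. In mTOR Tg replicate 1 the median difference from WT was 0.26 for proteases, 0.25 for glycan and lipid enzymes, 0.01 for the pump and -0.79 for regulators. In mTOR Tg replicate 2 the medians were 0.19, 0.02, 0.07 and 0.13 in the same order. Their median transcript lengths were 1980, 2560, 2682 and 2966 bases in that order. These differences between role groups were not tested.

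The remaining genes of the pathway were read from lists written down with earlier results of these data known. Of 17 other V-ATPase genes, 16 were tested, 0 were called and 12 were above 0, with a median log2 fold change of 0.21. mTOR Tg was above WT without overlap in 7 of the 16, beside 17.6% of all genes, and below in 1, beside 17.0%. Small V0 subunits had the smallest p-values: Atp6v0e2 was at 8.95, 9.25, 19.7 and 10.8 CPM and Atp6v0e at 43.3, 41.5, 62.8 and 49.3. In the other direction the C2 subunit Atp6v1c2 was at 184, 171, 165 and 146 and the accessory subunit Atp6ap2 at 67.4, 60.2, 47.2 and 70.8. The median transcript of this list was 1508 bases long, and it had median differences from WT of 0.37 (mTOR Tg replicate 1) and 0.07 (replicate 2). Without mTOR Tg replicate 1 the median log2 fold change of the list was 0.07.

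Of 37 other lysosomal hydrolases, 36 were tested, 0 were called and 23 were above 0, with a median of 0.10, or 0.02 after the length and GC correction. Both mTOR Tg libraries were above both WT libraries in 9 of 36, beside 17.6% of all genes, and below them in 3, beside 17.0%. The dipeptidyl peptidase gene Dpp7 was at 8.18, 9.86, 13.1 and 12.3 CPM and Lipa, the acid lipase, at 1.54, 1.77, 2.85 and 2.20. In the other direction the sulphatase gene Arsb was at 44.2, 37.5, 29.8 and 35.7, and the cathepsin gene Ctso at 23.2, 23.0, 17.3 and 20.7. This larger list had a median difference from WT of 0.0009 in mTOR Tg replicate 1 and 0.12 in replicate 2.

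Among 25 other membrane and transport genes of the lysosome, 24 were tested, 0 were called and 10 were above 0 (median -0.01, 0.07 without mTOR Tg replicate 1 and -0.21 without replicate 2). In 3 of the 24 both mTOR Tg libraries were above both WT libraries, beside 17.6% of all genes, and in 2 below, beside 17.0%. The proton channel gene Tmem175 was at 14.7, 15.8, 18.6 and 20.6 CPM and the tetraspanin gene Cd63 at 359, 342, 426 and 388. Mfsd8 was at 11.0, 11.0, 5.64 and 9.67, and the sialomucin gene Cd164 at 194, 193, 133 and 186. Of 10 genes that tag hydrolases with mannose 6-phosphate or sort them, 0 were called and 4 were above 0 (median -0.07, and 0.09 without mTOR Tg replicate 1). In 2 of these 10 both mTOR Tg libraries were above both WT libraries, beside 17.6% of all genes, and in 0 below, beside 17.0%. Nagpa, which uncovers the tag, was at 9.77, 9.75, 14.2 and 11.8, and Gnptab, the phosphotransferase that begins it, at 117, 121, 59.0 and 137. The adaptor genes Gga1 and Gga2 were at 186, 192, 288 and 175 and at 40.4, 37.0, 25.5 and 41.8. Of 16 genes listed for the control of TFEB, mostly through Rag GTPases, calcineurin or kinases, 0 were called and 6 were above 0. Their median was -0.06, and 0.02 without mTOR Tg replicate 1. In 1 of the 16 both mTOR Tg libraries were above both WT libraries, beside 17.6% of all genes, and in 3 below, beside 17.0%. Lamtor4 and Lamtor2, of the Ragulator complex, were at 24.2, 23.3, 41.3 and 22.6 and at 42.7, 39.2, 62.4 and 41.1 CPM. The calcineurin subunit genes Ppp3cb and Ppp3ca were at 51.1, 54.7, 29.5 and 48.2 and at 147, 144, 110 and 134.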

How the data were processed

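The files deposited by the authors hold raw read counts by gene symbol for 4 libraries of type II cell RNA, extracted with an RNeasy kit per the labels' protocols. The submitters' processing notes name HISAT2, edgeR and mm10; how reads were assigned to genes, and with which annotation, was not given in the sources used here. Tests were run in edgeR 4.0.16 under R 4.3.3. filterByExpr by group (minimum count 10) kept 13306 genes with 99.9% of the counts. The quasi-likelihood test on TMM-scaled libraries compared mTOR Tg with WT, with genotype alone in the model, Benjamini-Hochberg adjustment over all tested genes and a threshold of 0.05. An SE is the absolute log2 fold change over the square root of F. Differences of single libraries from the WT mean use log2 CPM with a prior count of 2. An exact two-sided permutation test of 2 libraries against 2 cannot go below p = 0.333, so none was run. The depth makes 3 counts 0.137 to 0.165 CPM of total counts, without the TMM adjustment, which covers counting error only. Lengths, GC content and positions came from GENCODE M21 on GRCm38, taking each symbol's basic-set transcript of median length; 98.7% of tested genes had them. The length and GC correction fitted smooths with mgcv 1.9.3 to each library and used them as offsets. The test was tried on simulated data in which all libraries had the same spread and none had a length-dependent shift. That trial therefore does not cover a library such as mTOR Tg replicate 1.

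Alternatives were DESeq2 size factors, library size only, no filter, a minimum count of 50, DESeq2 1.42.0, limma-voom (limma 3.58.1), each library left out, the replicate number as a block, and the length and GC correction with or without that block. By rule, counts in every library were given for the regulators and, in each other role group, for called genes or else the 2 genes with the smallest p in each direction and the most and least abundant per length; other pathway lists name up to 2 genes in each direction. The genes and lists were chosen with earlier results of these data known. The counts of hydrolases above both WT libraries in 1 mTOR Tg library were added after seeing the data.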

Additional observations from a re-analysis of the deposited data

How the results depend on the processing

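With 1 library left out, the lone library of its group is assumed to vary like the other group. Over all genes, 11 to 6199 were called in such fits (299 without mTOR Tg replicate 1, 6199 without replicate 2), 13 with DESeq2 and 37 with the replicate block, against 0; the cause was not tested. Deviations of same-numbered libraries correlated at 0.071, and the block called 0 of the 34 genes, beside 0.278% of all genes. Whether same-numbered libraries share more than a number was not tested beyond these values. Of the 34, 0 to 14 were called with 1 library left out. Hydrolases above both WT libraries numbered 9 to 12 with 1 mTOR Tg library left out, beside 35.1% to 44.7% of all genes. With both required they numbered 7, beside 17.6%, and fewer libraries must separate when 1 is left out. With 1 library left out, group medians ran from -0.80 to 0.12 for regulators, 0.09 to 0.28 for membrane proteins, 0.17 to 0.30 for proteases, 0.02 to 0.25 for glycan and lipid enzymes, 0.01 to 0.11 for the pump and 0.07 to 0.17 for all 34 genes. The length and GC correction gave medians of -0.05 for regulators, 0.09 for membrane proteins, 0.14 for proteases, 0.06 for glycan and lipid enzymes, 0.06 for the pump and 0.06 for all 34 genes. With the replicate block as well they were -0.08, 0.09, 0.13, 0.06, 0.06 and 0.06. Library size alone gave 0.07 for all 34 and 0.00047 for the pump, and turned Ctsl to -0.02 and Atp6v0a1 to -0.03.

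The length and GC correction also turned Tfeb to -0.04, Tfe3 to -0.0031, Lamp2 to 0.02, Tpp1 to 0.06, Gla to 0.03, Atp6v0d1 to -0.0038, Atp6v1b2 to 0.03 and Atp6v1c1 to 0.05. With the replicate block as well these were -0.05, -0.003, 0.01, 0.06, 0.03, -0.0042, 0.01 and 0.05. Leaving out 1 library turned the sign of 17 of the 34 log2 fold changes, 15 of them without mTOR Tg replicate 1. Their ranges were -0.19 to 0.47 for Tfeb, -0.02 to 0.16 for Tfe3, -1.22 to 0.13 for Mitf, -0.38 to 0.28 for Flcn, -1.34 to 0.14 for Fnip1 and -1.48 to 0.11 for Fnip2. They were -0.49 to 0.15 for Lamp2, -0.04 to 0.13 for Ctsl, -0.36 to 0.13 for Tpp1, -0.01 to 0.30 for Glb1, -0.03 to 0.46 for Naglu and -0.22 to 0.02 for Sgsh. In the pump they were -0.22 to 0.22 for Atp6v0a1, -0.34 to 0.76 for Atp6v0d2, -0.96 to 0.15 for Atp6v1a, -0.26 to 0.21 for Atp6v1b2 and -0.14 to 0.08 for Atp6v1c1.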

Other observations

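The genes below stand outside the 36 and were chosen after their values were seen. Ctsh and Napsa encode the cathepsin H and napsin A that process surfactant proteins in type II cells. Ctsh was at 574, 502, 741 and 631 normalised CPM (WT replicates 1 and 2, mTOR Tg replicates 1 and 2), with both mTOR Tg libraries above both WT libraries and a log2 fold change of 0.35 (SE 0.22), or 0.23 without mTOR Tg replicate 1. Napsa was at 1331, 1070, 1179 and 1415, with overlapping groups. Npc2, the cholesterol carrier of the lysosome lumen, was at 2810, 2451, 3146 and 2703.

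Atp6v1b1, the V1 B subunit of specialised acid-secreting cells, was at 17.95, 21.7, 38.7 and 6.22 normalised CPM. The club cell gene Scgb1a1 had the same order of libraries, at 70880, 72590, 149300 and 43870. Whether the Atp6v1b1 reads came from airway cells was not tested. Rragd, a Rag GTPase gene known as a target of TFEB, was at 38.4, 35.7, 24.6 and 58.8, so that its lowest and highest libraries were both mTOR Tg. None of these genes passed the edgeR test.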
